A study of Mus musculus with 4 samples.

Results

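The genes described here are 6 parts of the circadian clock of the mouse: Arntl, Clock and Npas2, which encode its activators, and Nfil3, Cry1 and Rora, which are tied to the same arm of the loop. They were taken by gene symbol from the arrays, 6 of 27195 genes named, and 15 of 56605 probes carry one of these symbols. The list was drawn up from the signals described below, so each difference is a description and no test was run on it. The arrays held lung RNA of C57BL/6J mice in a 2 by 2 layout of surgery and administered agent. The groups were ORX mice given PPE (ORX/PPE), ORX mice given PBS (ORX/PBS), sham-operated mice given PPE (sham/PPE) and sham-operated mice given PBS (sham/PBS). ORX was read as orchiectomy and PPE as porcine pancreatic elastase, from the series title, which names testosterone deficiency and elastase-induced emphysema. All groups were labelled as 3 weeks after administration, and each was 1 array of RNA pooled from 5 mice. The sources used here give neither the age of the mice nor the hour at which lungs were taken. With 1 pool per group, surgery, agent, hour of collection and pool cannot be told apart in any difference below.

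In the mammalian clock, the protein of Arntl (BMAL1) pairs with CLOCK or its relative NPAS2 and binds E-boxes in the genes of its own repressors, the Per and Cry genes, and of the REV-ERB receptors Nr1d1 and Nr1d2. PER and CRY proteins then silence the pair. In a linked loop, ROR proteins such as that of Rora activate and REV-ERB proteins repress genes with a ROR element (RORE), among them Arntl, Npas2, Nfil3 and Cry1. Transcripts of Arntl and of E-box targets such as Per2 and Dbp therefore peak at nearly opposite hours, and most cell types of the lung carry such a clock. NFIL3 represses the D-box genes that the PAR bZIP factors DBP, TEF and HLF activate.

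The Arntl probes are shown because the widest differences rest on them. All 3 read transcript NM_007489 on chromosome 7, plus strand, build mm9, and they are named here by the transcript base at which they start. The probe from base 2245 lies at chr7:120456978-120457037 and the probe from base 1262 at chr7:120439030-120439089. The probe from base 1027 spans chr7:120435023-120436706, which is 1684 bases for 60 letters, so it crosses at least 1 intron. Exon and UTR annotation of mm9 was not used here. The 3 sequences, 5′ to 3′ as printed on the array, were these.
Arntl probe from base 2245: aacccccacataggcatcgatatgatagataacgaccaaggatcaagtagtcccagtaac
Arntl probe from base 1262: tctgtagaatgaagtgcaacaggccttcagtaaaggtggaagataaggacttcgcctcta
Arntl probe from base 1027: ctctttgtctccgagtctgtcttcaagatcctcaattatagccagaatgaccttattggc

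Promoter windows are shown for Arntl, Nfil3 and Cry1, the members whose window held a searched clock motif. Each window runs from 250 bases before a RefSeq transcription start to 50 after it, 300 bases in all, on GRCm38.p6, printed in the direction of the gene, with capitals marking the motif. Arntl has 2 starts in the table, and its second window is chr7:113207261-113207560 on the plus strand. The window of Nfil3 is chr13:52980990-52981289 and that of Cry1 chr10:85185005-85185304, both on the minus strand. Capitals are the RORE core TAGGTCA in Arntl, the same core on the opposite strand in Nfil3, and the E-box CACGTG in Cry1.
Arntl, start 2: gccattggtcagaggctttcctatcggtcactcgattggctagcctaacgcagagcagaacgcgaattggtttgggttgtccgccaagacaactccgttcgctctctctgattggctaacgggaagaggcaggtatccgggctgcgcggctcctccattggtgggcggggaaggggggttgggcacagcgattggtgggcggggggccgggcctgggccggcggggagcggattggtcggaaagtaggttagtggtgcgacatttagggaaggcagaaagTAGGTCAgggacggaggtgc
Nfil3, start 1: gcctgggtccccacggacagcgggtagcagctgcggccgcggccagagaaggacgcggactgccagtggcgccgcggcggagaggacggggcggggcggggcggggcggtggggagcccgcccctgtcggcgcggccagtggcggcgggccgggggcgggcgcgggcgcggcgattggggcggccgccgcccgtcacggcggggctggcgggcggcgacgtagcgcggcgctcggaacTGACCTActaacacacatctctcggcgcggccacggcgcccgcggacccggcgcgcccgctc
Cry1, start 1: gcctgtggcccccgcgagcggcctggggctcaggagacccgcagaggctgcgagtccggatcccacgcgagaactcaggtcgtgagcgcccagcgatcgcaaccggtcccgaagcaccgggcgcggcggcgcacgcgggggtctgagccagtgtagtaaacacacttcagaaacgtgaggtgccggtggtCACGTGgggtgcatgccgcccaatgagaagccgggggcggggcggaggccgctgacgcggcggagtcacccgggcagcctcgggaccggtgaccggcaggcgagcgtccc

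The signal is the processed intensity of each probe. Differences are on the log2 scale after each array's 75th percentile was subtracted, and folds are given after the same scaling. That percentile was 855.6 on ORX/PPE, 993.8 on ORX/PBS, 824.3 on sham/PPE and 850.1 on sham/PBS. Between 20132 and 20912 genes were well above background on an array, by the scanner's own mark. Probes spotted 10 times on each array put the SD of a difference that comes from spots at 0.0469 for signals over 300, 0.128 for 30 to 300 and 0.547 below 30, from 300 such probes. This covers spots and not mice, so the number of arrays limits the precision. All 8 lung epithelium markers were above background on each array, with summed levels of 1668, 1519, 1759.7 and 1656 in units of the 75th percentile (ORX/PPE, ORX/PBS, sham/PPE and sham/PBS). Sftpc and Scgb1a1 were the brightest of the 8 on every array, so these sums rest largely on them. Single markers moved more than the sums. From sham to ORX, Foxj1 gave 0.17 under PPE and -0.56 under PBS, and Napsa -0.05 and 0.54. For PPE against PBS in sham lungs, Foxj1 gave -0.74 and Napsa 0.61. The summed markers of other tissues differed more than the epithelial sums. The 9 cardiac muscle markers were all above background everywhere and summed to 20.3, 41.0, 116 and 50.7 in the same order. The 4 spermatid markers summed to 0.123, 0.121, 2.66 and 0.125, with 3 of 4 above background on ORX/PPE and 4 on the other arrays. The 5 fat markers, Ucp1, Cidea, Elovl3, Adipoq and Plin1, summed to 1.42, 2.19, 7.84 and 1.95 with 3, 4, 4 and 3 above background. Not all of these are particular to brown fat, so the sum stands for fat in general. The 5 liver markers summed to 0.211, 0.343, 0.782 and 0.224 with 3, 2, 3 and 2 above background. In bulk RNA, fewer cells that carry a transcript and less of it per cell cannot be told apart.

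Arntl, the partner shared by CLOCK and NPAS2, was lower in ORX than in sham lungs under both agents on all 3 probes. On the brightest probe, from base 2245, the signal was 166 in ORX/PPE and 219 in ORX/PBS, against 559 in sham/PPE and 853 in sham/PBS. Both ORX pools thus lay below both sham pools, and sham/PBS was the highest. The difference of ORX from sham was -1.80 under PPE, 3.49-fold lower, and -2.19 under PBS, 4.56-fold lower. The junction probe from base 1027 read 59.3 in ORX/PPE and 52.6 in ORX/PBS, against 131 in sham/PPE and 215 in sham/PBS. Its differences were -1.19 under PPE and -2.25 under PBS, on the same side as those of the brighter probe. The remaining probe, from base 1262, read 47.5 in ORX/PPE, 31.8 in ORX/PBS, 75.5 in sham/PPE and 144 in sham/PBS. Here the differences were -0.72 under PPE and -2.40 under PBS. Their differences lay within 0.21 of each other under PBS and spread over 1.08 under PPE, where the probe from base 1262 did not pass 2-fold. Which ORX pool was lowest depended on the probe, ORX/PPE on the brightest and ORX/PBS on the other 2, while sham/PBS was the highest on all 3.

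**Figure D1:**
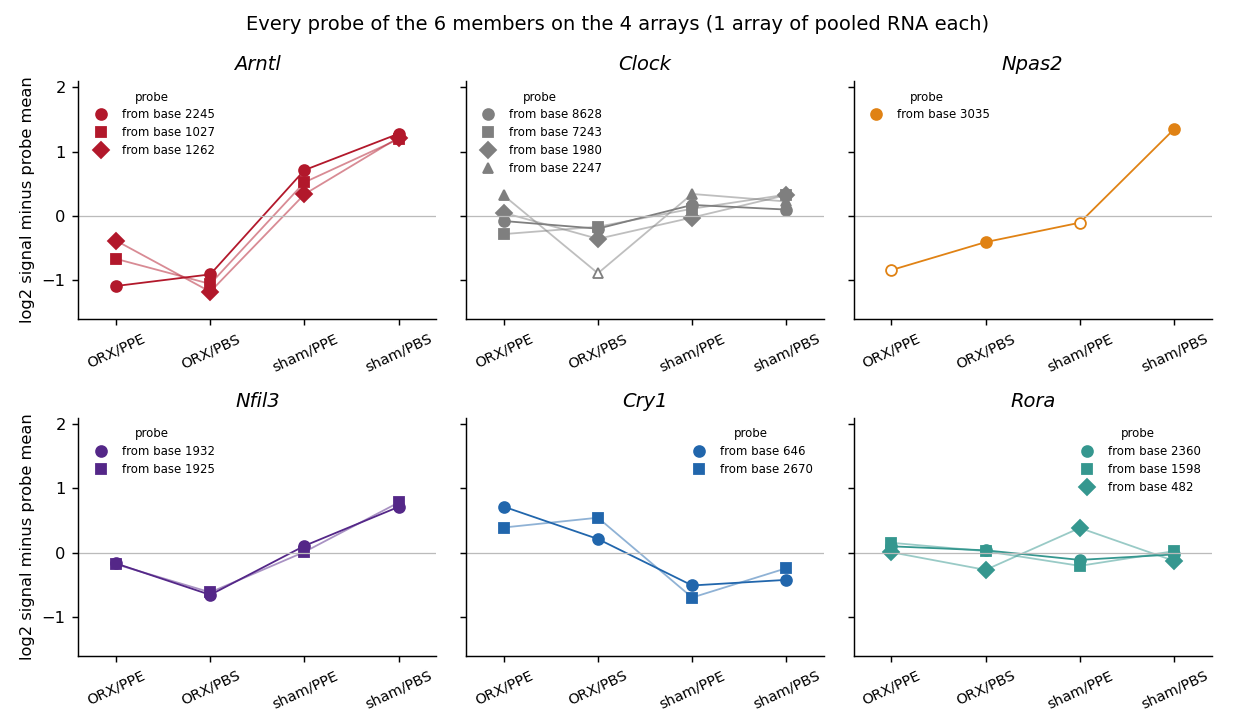
Scaled log2 signal of every probe of the 6 genes, minus that probe's mean over the 4 arrays (y axis), by array (x axis, 1 pooled sample each). Each line is a probe, named by the transcript base where it starts, and open points were not well above background. Arntl and Nfil3 are highest in sham/PBS on every probe, and Cry1 is higher in both ORX pools than in both sham pools.

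Among all genes measured in ORX and sham lungs, Arntl ranked 52 from the lowest of 19603 under PPE and 6 from the lowest of 19958 under PBS. Of 19320 genes above background on all 4 arrays, 3 were at least as low as Arntl under both agents, Arntl itself, the chemokine gene Cxcl5 and Spon2, named here after their values were seen. As the gene was chosen for this pattern, these ranks only place it on the scale. Neutrophil markers, 7 in number, all above background except 1 in sham/PBS, summed to 73.0, 58.8, 135 and 38.7 in ORX/PPE, ORX/PBS, sham/PPE and sham/PBS. B cell markers, 4 of 4 above background throughout, summed to 22.1, 20.3, 15.7 and 10.1, and the 5 T and natural killer cell markers, also all above background, to 15.9, 18.7, 15.8 and 10.5 in the same order. These immune sums were lowest in sham/PBS, where Arntl was highest, and their part in the difference was not tested. Not every neutrophil marker ran this way, as Ltf was lowest in ORX/PPE and Cxcr2 in ORX/PBS.

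Npas2, which can stand in for CLOCK beside BMAL1, was a dim transcript with 1 probe, at chr1:39418941-39419000 on mm9. It read 7.5 in ORX/PPE and 11.8 in ORX/PBS, against 12.0 in sham/PPE and 33.9 in sham/PBS. The 2 PPE pools were not well above background, and sham/PBS stood apart as the brightest. Under PBS the gene was 3.38-fold lower in ORX than in sham lungs, a log2 difference of -1.76. At this brightness the spots alone gave an SD of 0.547, taken from only 12 pairs of a probe and an array, and normexp background correction left -0.68. Under PPE both pools were below background and no fold is given. Its highest pool was sham/PBS, as on all 3 Arntl probes.

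Clock, the partner of BMAL1 in most tissues, varied far less. Its brightest probe, from base 8628 of transcript NM_007715 at chr5:76639992-76640051 on the minus strand of mm9, read 2585 in ORX/PPE, 2765 in ORX/PBS, 2962 in sham/PPE and 2906 in sham/PBS. The 2 ORX pools lay just below the 2 sham pools once scaled, with differences of -0.25 under PPE and -0.30 under PBS. Another probe, from base 7243, read 825 in ORX/PPE, 1037 in ORX/PBS, 1045 in sham/PPE and 1255 in sham/PBS, and its differences were -0.39 under PPE and -0.50 under PBS. A probe designed on the cDNA AK030352 read 279 in ORX/PPE, 245 in ORX/PBS, 256 in sham/PPE and 336 in sham/PBS. It gave 0.07 under PPE and -0.68 under PBS, so the sign under PPE was not shared by the 3 probes. The fourth probe, which crosses a splice junction, was dim at 11.8 in ORX/PPE, 5.9 in ORX/PBS, 11.6 in sham/PPE and 11.0 in sham/PBS, and not above background in ORX/PBS. None of these 4 probes passed 2-fold where both pools were measured.

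Nfil3, which encodes the repressor of D-box genes, was lower in ORX than in sham lungs under PBS and close to sham under PPE. The brighter of its 2 probes, from base 1932 at chr13:53062578-53062637 on the minus strand of mm9, read 833 in ORX/PPE and 690.1 in ORX/PBS, against 971 in sham/PPE and 1525 in sham/PBS. The sham/PBS pool was the highest and ORX/PBS the lowest, with the 2 PPE pools between them. The difference was -0.27 under PPE and -1.37 under PBS, the second 2.58-fold lower. A probe starting at base 1925, which shares most of its letters with the first, read 707 in ORX/PPE, 607 in ORX/PBS, 779 in sham/PPE and 1369 in sham/PBS. It gave -0.19 under PPE and -1.40 under PBS, but as the 2 probes overlap they are not separate readings of the transcript. Nfil3 ranked 56 from the lowest of 19958 genes under PBS and 2716 from the lowest of 19603 under PPE.

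Cry1, a repressor of the BMAL1 pair whose transcript peaks later than those of the Per genes in mouse tissues, stood on the other side, higher in ORX lungs under both agents. The probe from base 646, at chr10:84647094-84647153 on the minus strand of mm9, read 125 in ORX/PPE and 102 in ORX/PBS, against 51.4 in sham/PPE and 56.3 in sham/PBS. Both ORX pools lay above both sham pools. Its difference was 1.23 under PPE, 2.34-fold higher, and 0.64 under PBS. The probe from base 2670, at chr10:84594731-84594790, read 84.6 in ORX/PPE and 109 in ORX/PBS, against 38.3 in sham/PPE and 54.2 in sham/PBS. It gave 1.09 under PPE and 0.79 under PBS, so both probes passed 2-fold under PPE and neither did under PBS. With normexp background correction the first probe's differences were 0.60 and 0.30, under 2-fold in both cases. Cry1 ranked 13 from the highest of 19603 genes under PPE and 523 from the highest of 19958 under PBS.

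Rora, which encodes the activator that competes with REV-ERB proteins for the RORE, differed least. Its brightest probe, from base 2360 at chr9:69227536-69227595 on the plus strand of mm9, read 8109.8 in ORX/PPE, 9021 in ORX/PBS, 6747 in sham/PPE and 7383 in sham/PBS. The differences were 0.21 under PPE and 0.06 under PBS. Its second probe, from base 1598, read 918 in ORX/PPE, 974 in ORX/PBS, 689.6 in sham/PPE and 833 in sham/PBS, with differences of 0.36 under PPE and -0.000248 under PBS. The probe of another transcript, NM_001289917, at chr9:68511835-68511894, read 14.9 in ORX/PPE, 14.3 in ORX/PBS, 18.6 in sham/PPE and 13.5 in sham/PBS. At that brightness its differences of -0.38 under PPE and -0.14 under PBS lay within the spread of repeated spots.

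Counted by gene, 1 of the 5 members that could be compared under PPE was higher in ORX than in sham lungs by 2-fold or more (Cry1) and 1 was lower by as much (Arntl). Over all 20780 genes the shares were 0.322% higher and 1.41% lower. Under PBS, 0 of 6 members reached 2-fold on the higher side and 3 on the lower (Arntl, Npas2 and Nfil3), with 0.589% of 21205 genes higher and 1.24% lower. The list's median difference was -0.25 under PPE and -0.83 under PBS, where all genes had medians of -0.02 and -0.01. Since the members were chosen from these arrays, nothing is read from their count beside those shares. Under both agents, Arntl was the only member at least 2-fold lower, as were 0.127% of 20405 genes, and no member was at least 2-fold higher, as were 0.049%. Although grouped by name as activators and their phase, the 6 genes did not share a profile on these arrays, and no phase can be read without the hour of collection. Arntl, Npas2 and Nfil3 were at least 2-fold lower in ORX lungs under PBS, and Cry1 was higher in ORX lungs under both agents. Clock and Rora stayed within 2-fold on every probe measured in both pools.

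**Figure D2:**
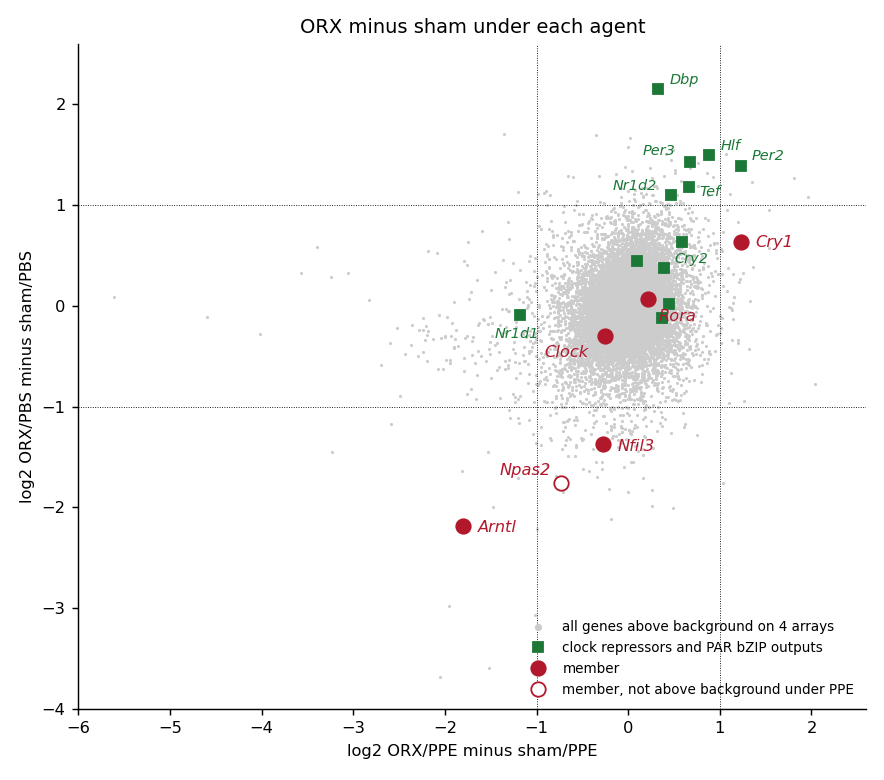
Log2 difference of ORX from sham under PPE (x axis) and under PBS (y axis) for 19320 genes (grey), the members (red) and 12 clock repressors and PAR bZIP outputs (green), with dotted lines at 2-fold. Arntl lies at -1.80 and -2.19, Cry1 at 1.23 and 0.64, and the open point of Npas2 has no measured value under PPE.

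The administered agent was compared within ORX and within sham mice to ask how it went with these genes. In ORX lungs, 0 of 6 members differed by 2-fold or more in either direction (Npas2 was above background in ORX/PBS only and gave no bound), beside 0.695% of 21159 genes higher and 0.359% lower. In sham lungs, 0 members were higher by 2-fold or more and 1 was lower, beside 1.27% of 20859 genes higher and 0.427% lower. That gene was Npas2, given as at least 2.74-fold lower under PPE because the sham/PPE pool was not above background, and normexp correction left a difference of only -0.21. Each comparison of PPE shares 1 array with each comparison of ORX, so the values of a gene in the 4 comparisons are not separate readings.

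On the brightest Arntl probe the difference of PPE from PBS was -0.18 in ORX and -0.57 in sham lungs. The other 2 probes gave 0.39 and 0.79 in ORX lungs and -0.67 and -0.88 in sham lungs. Arntl was thus lower under PPE in sham lungs on all 3 probes, by less than 2-fold, while in ORX lungs the probes differed in sign. The first Nfil3 probe gave 0.49 in ORX and -0.61 in sham lungs, and the overlapping probe 0.44 and -0.77, so the transcript was higher under PPE in ORX lungs and lower in sham lungs. Cry1 gave 0.50 and -0.15 on its 2 probes in ORX lungs and -0.09 and -0.46 in sham lungs. The brightest Clock probe gave 0.12 in ORX and 0.07 in sham lungs, and the brightest Rora probe 0.06 and -0.09. For these last 2 genes the values ran from -0.09 to 0.12 on those probes, but their other probes spread more widely. Over all measured probes, Clock ran from -0.11 to 0.41 in ORX and from -0.35 to 0.12 in sham lungs. Rora ran from 0.06 to 0.27 in ORX and from -0.23 to 0.51 in sham lungs, the 0.51 on its dim probe. The summed levels of the cardiac, fat, spermatid, liver and neutrophil markers were highest in sham/PPE, though not those of every marker (Actc1, Apoa1 and Ngp peaked elsewhere), and their part in the sham values was not tested.

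**Figure D3:**
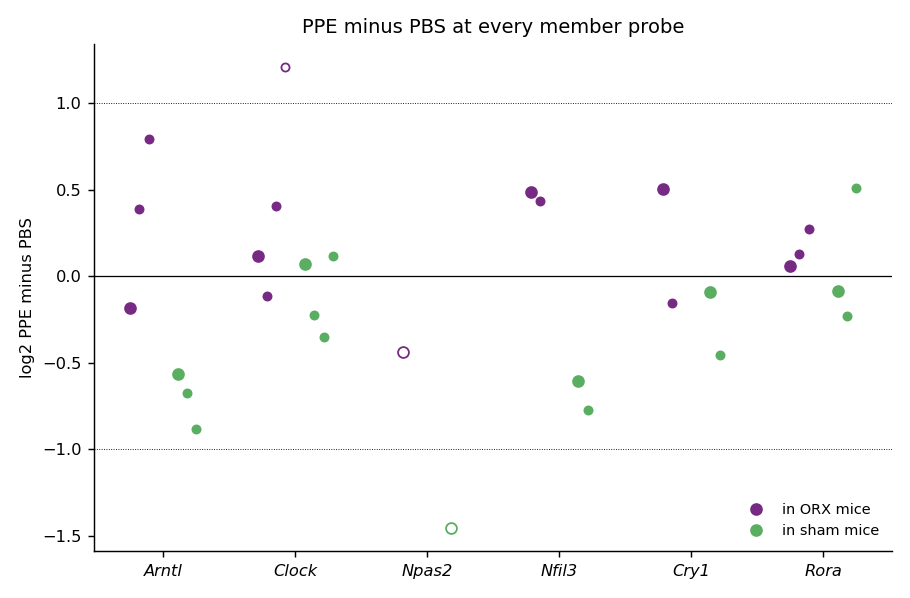
Log2 difference of PPE from PBS (y axis) at each probe of the 6 genes, in ORX mice (purple, left of each pair) and sham mice (green, right), with dotted lines at 2-fold and large points for the probe that represents the gene. Open points have a pool that was not well above background, and the 3 Arntl and 2 Nfil3 probes are all below 0 in sham mice.

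The E-box and D-box genes that the clock drives on the other side of the loop were described as a list of 12 repressors and PAR bZIP outputs. Under PPE, 1 of 12 was higher in ORX than in sham lungs by 2-fold or more (Per2) and 1 lower (Nr1d1), with a median difference of 0.46. Under PBS, 6 of 12 were at least 2-fold higher (Per2, Per3, Nr1d2, Dbp, Tef and Hlf) and 0 lower, with a median of 0.86, to be read beside the shares and medians of all genes given above. Per2, a direct repressor of the BMAL1 pair, read 5624 in ORX/PPE and 6626 in ORX/PBS, against 2316 in sham/PPE and 2160.2 in sham/PBS. It was higher in ORX lungs by 1.23 under PPE and 1.39 under PBS, though its other probe gave 0.55 and 0.66. Per3, also of the Per family, was higher by 0.67 under PPE and 1.42 under PBS. Dbp, a D-box activator with E-boxes of its own, read 13221 in ORX/PPE, 17607 in ORX/PBS, 10130.2 in sham/PPE and 3397 in sham/PBS. Its difference was 0.33 under PPE and 2.15 under PBS, as sham/PPE lay near the ORX pools and sham/PBS far below. Hlf gave 0.89 and 1.49, and Tef 0.66 and 1.18, for PPE and PBS. Under PBS the lowest Tef probe gave 0.57 and the lowest Nr1d2 probe 0.96, both below 2-fold.

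The REV-ERB genes, which repress Arntl and Nfil3, did not run together. Nr1d2 read 6099 in ORX/PPE, 6816 in ORX/PBS, 4260.2 in sham/PPE and 2728 in sham/PBS, and was higher in ORX lungs by 0.46 under PPE and 1.10 under PBS. Nr1d1 read 608 in ORX/PPE, 837 in ORX/PBS, 1328 in sham/PPE and 760.0 in sham/PBS. Its difference of ORX from sham was -1.18 under PPE and -0.09 under PBS, with sham/PPE as its highest pool. Per1 gave 0.45 under PPE and 0.02 under PBS, Cry2 0.39 and 0.37, Bhlhe40 0.09 and 0.45, Bhlhe41 0.58 and 0.63, and Ciart 0.37 and -0.12. These 5 repressors of the BMAL1 pair stayed within 2-fold on their brightest probes, while another Bhlhe41 probe gave 1.31 under PBS. Other probes took the other sign under PBS for Per1 (-0.41) and Cry2 (-0.02). The other Ciart probe gave -0.29 under PPE and 0.10 under PBS, opposite to the first under both agents. In PPE against PBS, 0 of the 12 passed 2-fold in ORX lungs, with a median of -0.02. In sham lungs, Dbp was the only one to do so by its brightest probe, higher by 1.62 (another Bhlhe41 probe gave 1.12), with a median of 0.41, where all genes had medians of 0.00232 in ORX and 0.0225 in sham lungs.

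Paralogs of the members were read beside them. Arntl2, a paralog of Arntl that can also pair with CLOCK, gave 0.22 under PPE and 0.01 under PBS. Rorb, of the same family as Rora, was not above background on any array. By their brightest probes, none of 16 modifiers of clock proteins, such as the kinases, ubiquitin ligases and deacetylases that set their stability and activity, passed 2-fold in any of the 4 comparisons. Their median differences of ORX from sham were 0.05 under PPE and 0.02 under PBS. The largest was that of Usp2, a deubiquitinase with a daily rhythm in many tissues, at 0.94 and 0.62. None of the measured co-factors of ROR, REV-ERB or CLOCK passed 2-fold either, with medians over 7 genes of 0.14 under PPE and -0.07 under PBS.

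Lists of genes that follow daily signals beside the loop itself were read along with the members. Their counts stand beside shares of all genes of 0.322% higher and 1.41% lower under PPE, and 0.589% and 1.24% under PBS. Of 10 clock output genes of many tissues, 0 passed 2-fold under PPE, while under PBS 1 was higher in ORX lungs (Tspan4 at 1.37) and 1 lower (Cdkn1a at -1.42, with another probe at 0.05). Of 10 glucocorticoid-responsive genes, 0 passed 2-fold under PPE and 3 were lower under PBS, namely Angptl4 at -1.64, Pdk4 at -1.40 and Cdkn1a. The medians were -0.08 and -0.34. Under PBS 2 of the 10 were above 0, Fkbp5 at 0.20 (with another probe at -1.12) and Sgk1 at 0.19. Of 9 temperature-responsive genes, 2 were at least 2-fold lower in ORX lungs under PPE and 4 under PBS, with medians of -0.36 and -0.63. Under each agent 3 of the 9 were above 0, among them Hspb1 at 0.18 under PBS. Hspa1b, an inducible heat shock chaperone gene nearly identical to Hspa1a, so that a probe may read both, gave 646 in ORX/PPE, 568 in ORX/PBS, 1777 in sham/PPE and 5855 in sham/PBS, which orders sham above ORX as for Arntl. The brightest probes of the cold-inducible RNA-binding genes Cirbp and Rbm3 gave 0.94 and 0.44 under PPE and 0.63 and 0.48 under PBS. Their other probes did not all share these values, as the lowest Cirbp probe gave 0.03 under PPE and -0.20 under PBS, and the lowest Rbm3 probe -1.32 under PBS. The part of glucocorticoid or temperature signals in the differences of the members was not tested.

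Genes whose 4 values ran most like those of Arntl were found by the root mean square distance between log2 profiles, each centred on its own mean over the 4 arrays. The distance was ranked over 806 genes above background everywhere that spanned at least 2-fold. Each gene, Arntl included, was read by its brightest probe. The 3 Arntl probes themselves spread over 1.08 in the difference of ORX from sham under PPE, so the distances describe that probe. The 5 nearest named genes were Syt10, a synaptotagmin, at 0.28, the extracellular matrix protein gene Spon2 at 0.29, the protease gene Adamts4 at 0.35, the serpin gene Serpina3i at 0.37 and the sulfatase gene Arsi at 0.40. Spon2 read 562 in ORX/PPE, 588 in ORX/PBS, 2106 in sham/PPE and 3971 in sham/PBS. A second Syt10 probe gave a difference of 0.74 under PPE where the first gave -1.53, so its place rests on 1 of 2 probes. For Adamts4 another probe gave -0.65 under PBS where the first gave -2.22. Among named genes, the nearest to the Arntl profile with its sign turned were Per2 at 0.38, Hlf at 0.41, the granzyme gene Gzmk at 0.45, Galnt14, which encodes a glycosyltransferase, at 0.46, and Per3 at 0.48. For Galnt14 another probe gave -0.49 under PPE, opposite to the 0.76 of the first. Arsi, Gzmk and Galnt14 read below 30 on some arrays, where spots alone gave an SD of a difference of 0.547. These 5 held ranks 3 to 7 of the 806 genes, as the genes at ranks 1 and 2 are left unnamed, and 3 of the 5 are clock repressors or outputs. From the same list of 12, Tef held rank 13, Dbp 14, Nr1d2 33 and Nr1d1 420, and the remaining genes spanned less than 2-fold. Since Arntl and that list were chosen with these data known, nothing is read from the count. Among the members, Nfil3 was at a distance of 0.63 from Arntl, rank 109, and Cry1 at 0.59 from the turned profile, rank 22. Npas2 lay at 0.50 from Arntl, with 2 values below background, Clock at 0.90 and Rora at 1.08.

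**Figure D4:**
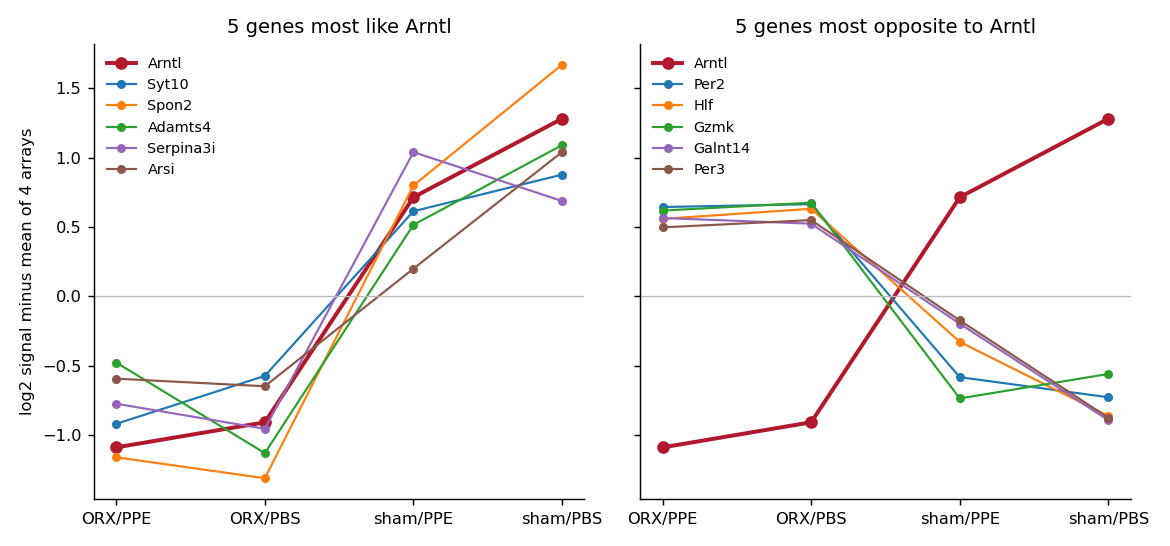
Scaled log2 signal minus the gene's mean over the 4 arrays (y axis) by array (x axis) for Arntl (thick red) with the 5 named genes most like it (left) and the 5 named genes most opposite (right). Per2, Hlf and Per3 are among the opposite profiles, at distances of 0.38, 0.41 and 0.48 from the turned profile of Arntl.

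The search covered 4 motifs on both strands in 32851 RefSeq promoter windows of 27025 genes, 9 of them of the 6 members. The RORE core TAGGTCA was held by 2.97% of genes, 802 in all, and by 2 members. In Arntl it lay at bases 31 to 37 after the second start and on the strand of the gene, and in Nfil3 at bases -12 to -6, on the opposite strand. The variant TGGGTCA was held by 4.57% of genes and 0 members. The E-box CACGTG was held by 8.09% of genes and by Cry1, at bases -60 to -55. The D-box TTATGNAA was held by 3.99% of genes and by 0 members. A looser core, TAGGTNA, which contains the first motif and was chosen after the member windows had been read, was held by 9.51% of genes and by the same 2 members, with 1 further Arntl site, read from base 41 in the first window and from base -6 in the second, since these windows overlap. On the arrays, Arntl and Nfil3, which hold the RORE core, were lower in ORX lungs under PBS, and so was Npas2, whose window holds none of the 4 motifs. Such letters describe the windows and show neither binding nor its absence.

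**Figure D5:**
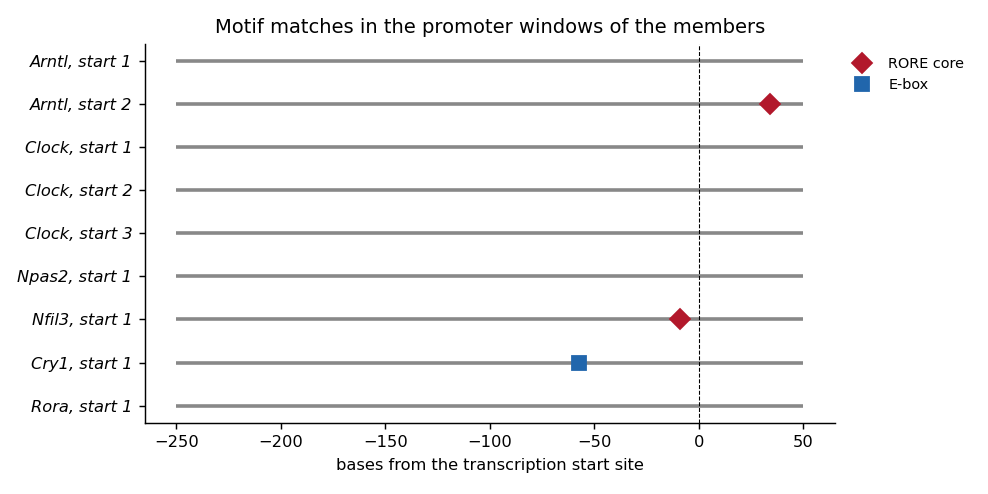
Matches to the RORE cores, the E-box and the D-box in the 9 promoter windows of the 6 genes, by distance in bases from the transcription start (x axis), 1 row per window. Red diamonds are the RORE core in Arntl start 2 and Nfil3, and the blue square is the E-box in Cry1.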

How the data were processed

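Lung RNA was isolated with TRIzol and a column kit and labelled with Cy3, per the labels' protocols, and hybridized to 4 one-colour arrays of Agilent design 074809, scanned on 1 day. The deposited processed signal is a linear intensity, background-subtracted and not scaled between arrays, per the file headers, which name Feature Extraction 10.7.1.1, while version 9.5.1.1 stands per the submitters' processing notes. The 0 or 1 marks for background, saturation and outliers are other deposited columns, per the file headers. Control spots and outlier spots (31 to 54 of 59305 per array) were left out, and 0 were saturated. Repeated spots were averaged, and levels are log2 of the mean less the 75th percentile of that array. A gene is its brightest unsaturated probe. Differences were taken where both arrays were well above background, and as a bound, against the higher of the dim value and the lowest signal well above background, where 1 was. Called means at least 2-fold. Every member probe is named, and of other genes those of the lists and the 5 nearest and 5 most opposite to Arntl, with Cxcl5 added after its values were seen, leaving out odorant and pheromone receptors and genes with no name beyond a clone or locus. The members and lists were chosen with earlier results of these data known. Probe positions are those of the files (mm9). Promoters came from a RefSeq table of GRCm38.p6, in which all 6 members matched. Alternatives were normexp (offset 50), 4 other scalings or sources, other filters, the mean of probes and a 1.5-fold threshold. Software was R 4.3.3 with limma 3.58.1, and Python 3.11.15 with pandas 2.3.3, numpy 2.4.6 and, for plots, matplotlib 3.10.9. The result of 1 listed gene is not reported here.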

Additional observations from a re-analysis of the deposited data

Results flagged for a closer look

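The difference of PPE from PBS in Nfil3 was 0.49 in ORX lungs and -0.61 in sham lungs, so the single ORX difference and the single sham difference ran in opposite directions, 1.09 apart on the log2 scale. With 1 array per group this gap was not tested. The overlapping second probe of Nfil3 gave 0.44 in ORX lungs and -0.77 in sham lungs.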

How the results depend on the processing

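No paired analysis was possible because each group is 1 array. With no replicates and no spread, no call carries a p-value, and dim probes such as that of Npas2 are limited by signal over background. Of the members' differences of ORX from sham, all but that of Rora under PBS kept their sign under all 7 settings that give a value. That of Npas2 under PPE rests on pools below background. Arntl ran from -1.82 to -1.24 under PPE and from -2.28 to -1.91 under PBS. Under PBS, Nfil3 ran from -1.38 to -1.25 and Npas2 from -1.76 to -0.68. Cry1 ran from 0.60 to 1.24 under PPE. No called value changed sign. The small differences of Rora from sham under PBS, of Clock, Cry1 and Rora for PPE in sham, and of Arntl and Npas2 for PPE in ORX took both signs. Among the members, normexp left 0 higher in ORX under PPE and 0 lower under PPE in sham, as did the filter on all arrays for the second. Both settings also took Npas2 out of the members at least 2-fold lower in ORX under PBS. Normexp left it at -0.68, and the filter dropped it, as it was above background on 2 arrays. The 1.5-fold threshold gave 1 higher in ORX under PBS and 2 lower under PPE in sham. Of 12 repressors and outputs, 0 were higher in ORX under PPE by the mean of probes and 4 at 1.5-fold, and 4 were higher under PPE in sham at 1.5-fold. Counts of all genes, as higher and lower for ORX under PPE, ORX under PBS, PPE in ORX and PPE in sham, were 67 and 294, 125 and 264, 147 and 76, and 265 and 89. They were 4 and 90, 29 and 66, 18 and 8, and 58 and 9 with normexp. With no filter on dim probes they were 735 and 1303, 874 and 1103, 940 and 853, and 1247 and 816. At 1.5-fold they were 503 and 964, 805 and 1182, 720 and 513, and 1066 and 842. With only genes above background on all arrays, ORX under PPE had 43 higher, ORX under PBS 83 higher and 171 lower, PPE in ORX 74 and 46, and PPE in sham 166 and 53. The 2 filters changed which genes were compared. The cause of the changed counts, under these filters or under normexp, was not tested. Of the 5 genes most like Arntl, and likewise of the 5 most opposite, 3 stayed among the 5 with normexp and 2 when profiles were divided by their SD. With only the bases before the start, the RORE core TAGGTCA was held by 2.55% of genes and the Arntl match, which lies after the start, was not counted.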
